A study of Mus musculus with 11 samples.

Results

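The pore-forming alpha1 subunits of voltage-gated calcium channels were followed in the retina of Nrl knock-out and wild-type mice. All 10 mouse alpha1 genes were taken by symbol from a table of 23284 genes, and all 10 were found in it. Retinas were taken at postnatal day 21 from 6 Nrl knock-out samples and 5 wild-type samples, with 1 mRNA sequencing library a sample; the labels name no other allele, no treatment and no strain, and do not say whether a library held 1 animal or several. Nrl is the leucine zipper transcription factor that directs photoreceptor precursors to the rod fate, and retinas without it are known for cone-like photoreceptors in place of rods. The comparison asked which alpha1 genes differ between these retinas.

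The alpha1 subunit forms the pore, the voltage sensor and the selectivity filter of the channel. For many alpha1 subunits, auxiliary beta and alpha2delta subunits set how much reaches the membrane. L-type channels inactivate slowly. In photoreceptors they sit beneath the synaptic ribbon, where calcium entry drives the steady release of glutamate in the dark. P/Q-, N- and R-type channels serve fast release at conventional synapses, and T-type channels open near the resting potential and shape firing and oscillation. Cacna1f encodes the L-type subunit of photoreceptor terminals, and its loss causes an incomplete form of congenital stationary night blindness in humans.

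The libraries held 14907613 to 19877314 reads in genes in knock-out retina and 16126210 to 20685840 in wild-type retina. Values are normalized counts, that is reads per gene divided by 1 size factor a library, and 3 reads (the most that a count of 0 allows) correspond to 2.61 to 3.50 normalized counts in knock-out libraries and 2.76 to 3.59 in wild-type libraries. Nrl stood at 51.7 ± 5.1 normalized counts in knock-out retina and at 37017 ± 1947 in wild-type retina (SD, n = 6 and 5). The 5 rod markers together held 50104 to 70109 normalized counts in knock-out libraries and 466154 to 534917 in wild-type libraries, all 5 lower. Nearly all of the knock-out sum was Sag, the arrestin gene (60459 ± 7218 in knock-out and 93772 ± 5648 in wild-type retina), whereas the other 4 were lower by 35.1-fold (Pde6b) or more. The 6 cone markers together held 189575 to 235601 normalized counts in knock-out and 19280 to 22066 in wild-type libraries, all 6 higher. Of the bipolar markers 5 of 8 were higher and 1 lower, and all 6 amacrine and all 6 ganglion markers were lower. All 5 microglia markers were higher (2884 to 4269 and 725.5 to 1028 normalized counts in sum). Of the Muller glia markers 3 of 6 were higher and 1 lower (79786 to 91566 and 75233 to 79606 in sum). Of the retinal pigment epithelium markers 1 of 5 was higher. By the rule given below, 23.6% of all tested genes were higher and 22.7% lower. In bulk retina, fewer cells of a type and less RNA per cell cannot be told apart, and the part of these cell markers in the results below was not tested.

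1 alpha1 gene rose in knock-out retina and 5 fell. Cacna1h, a T-type channel gene, rose about 2.57-fold. Cacna1f, Cacna1b, Cacna1c, Cacna1a and Cacna1i fell by 11.8% to 23.5%, and Cacna1d, Cacna1e, Cacna1g and Cacna1s were not called. A gene was called where limma gave a Benjamini-Hochberg adjusted p under 0.05 over 14584 tested genes. All 10 alpha1 genes passed the filter on low values. Among all tested genes 46.3% were called, 23.6% higher and 22.7% lower, so 6 of 10 called alpha1 genes, 5 of them lower, stand against a background in which nearly every second gene moved. On the log2 scale the median difference was -0.20 for the 10 genes and -0.01 over the whole set tested. At least 2-fold and called was 1 alpha1 gene, Cacna1h, against 7.77% of all tested genes, 5.17% higher. The knock-out and wild-type libraries did not overlap for 3 of the 10 (Cacna1h, Cacna1a and Cacna1i), against 30.9% of all tested genes, 16.4% higher and 14.5% lower.

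**Figure D1:**
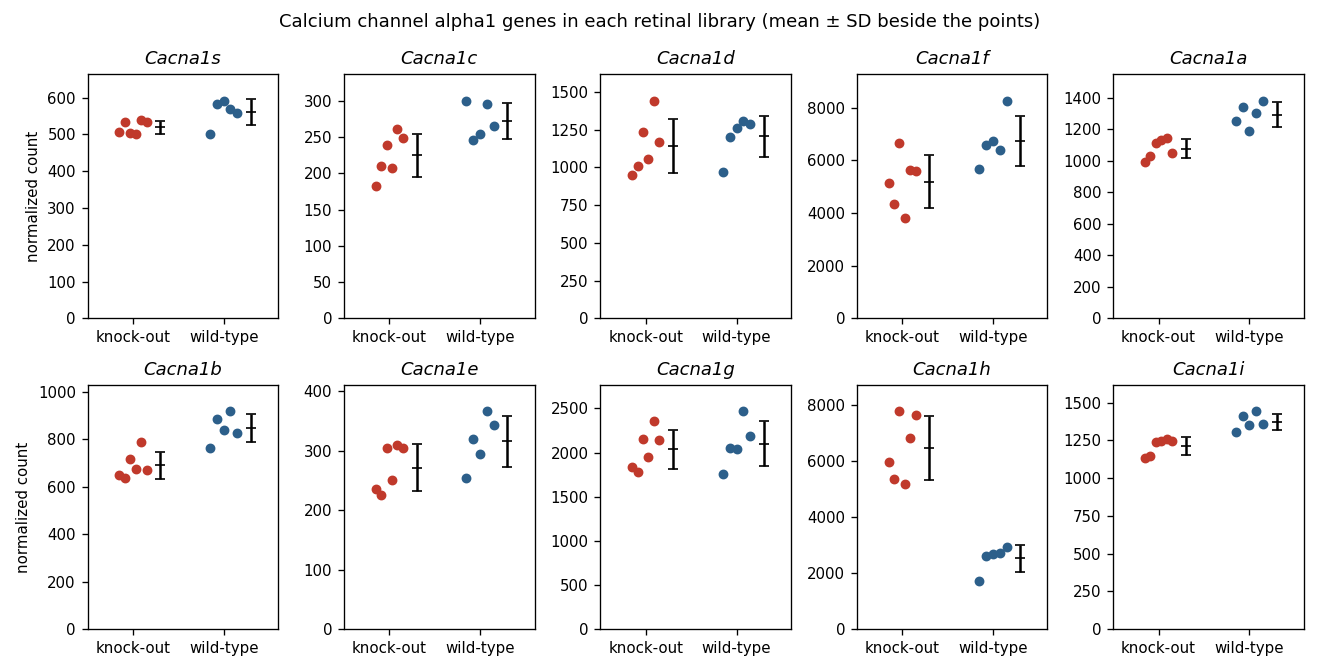
Normalized counts of the 10 alpha1 genes in each library (y axis, from 0), with 6 knock-out points on the left and 5 wild-type points on the right of each panel; bars give mean ± SD. The knock-out points of Cacna1h, from 5164 to 7772, lie above all wild-type points, and those of Cacna1a and Cacna1i lie below them.

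The small differences depend on how libraries are scaled. When library totals replaced the size factors, the median over all genes moved to 0.13 on the log2 scale, 77.4% of calls were higher (5861 higher and 1711 lower) against 51.1% with the size factors (3448 higher and 3304 lower), and of the alpha1 genes Cacna1h was called higher and Cacna1a lower (adjusted p = 2.97e-05 and 0.0468). A change of scaling moves all genes of a library alike. Relative to the median gene the alpha1 genes therefore stand nearly the same under either scaling by construction. Cacna1f lay 0.38 below it on the log2 scale with library totals as with size factors, and Cacna1h lay 1.37 above it. The falls named here are thus relative to the median gene.

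**Figure D2:**
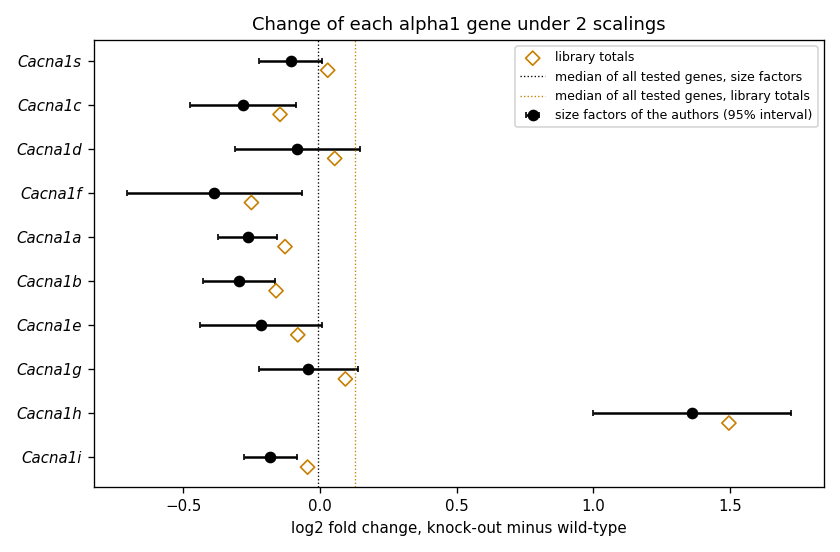
log2 fold change of each alpha1 gene, knock-out minus wild-type (x axis), with the authors' size factors (filled points, 95% intervals) and with library totals (open diamonds); dotted lines mark the median of all tested genes, -0.01 and 0.13. All diamonds lie to the right of their points by about the distance between the dotted lines, and Cacna1h lies apart from the other 9 genes.

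Among the T-type genes, Cacna1h was the member that moved furthest. In knock-out libraries it had 5164 normalized counts at the lowest, a median of 6403 and 7772 at the highest. The wild-type libraries held 1707, 2598, 2675, 2729 and 2929 normalized counts. The lowest knock-out library held far more than the highest wild-type one, and wild-type replicate 1 was low among its group. The group means were 6459 ± 1131 in knock-out and 2528 ± 475 in wild-type retina (SD, n = 6 and 5), a log2 fold change of 1.36 (SE 0.16, 95% interval 1.00 to 1.72, adjusted p = 4.93e-05, limma). Of all tested genes, 505 rose more. Cacna1h was called under all 22 alternatives, and its lowest value, 1.22, was that without wild-type replicate 1. An exon of Cacna1h overlaps Tpsg1, a tryptase gene on the other strand, which had a mean of 1.72 normalized counts in knock-out and 1.87 in wild-type libraries. Cone markers (6 of 6) and microglia markers (5 of 5) were higher in the same libraries, against 23.6% of all tested genes. So were bipolar markers (5 of 8, with 1 lower) and Muller glia markers (3 of 6, with 1 lower). The part of these cell types in the rise of Cacna1h was not tested.

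The other T-type genes did not follow it. Cacna1g, known for the low-threshold current of thalamic and other neurons, ranged from 1780 to 2354 normalized counts in knock-out and from 1756 to 2467 in wild-type libraries. These ranges lie on top of each other (log2 fold change -0.04, 95% interval -0.22 to 0.14, adjusted p = 0.71). Its sign turned with library totals (0.093) and without wild-type replicate 4 (0.017). Cacna1i, the third T-type gene, ranged from 1131 to 1262 normalized counts in knock-out libraries, with a median of 1242. In wild-type libraries it had 1308, 1411, 1349, 1442 and 1356 normalized counts. Every knock-out library lay below every wild-type one by a small margin, and the log2 fold change was -0.18 (SE 0.05, adjusted p = 0.00312). That call ended with library totals (-0.05, adjusted p = 0.449).

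Cacna1f was the alpha1 gene with the most reads per length in wild-type retina. In knock-out libraries it ranged from 3819 through a median of 5369 to 6642 normalized counts. In wild-type libraries it had 5675, 6584, 6745, 6380 and 8274. The groups overlap, with knock-out replicate 3 at the level of the middle of the wild-type libraries and wild-type replicate 1 at that of the upper knock-out ones. The means were 5194 ± 1009 in knock-out and 6731 ± 954 in wild-type retina, a log2 fold change of -0.39 (SE 0.14, 95% interval -0.71 to -0.07, adjusted p = 0.0485, limma). The call lies at the threshold: it ended under 14 of 22 alternatives, among them edgeR's quasi-likelihood test (adjusted p = 0.0622) and the loss of any 1 library other than knock-out replicate 3 or wild-type replicate 1 (adjusted p from 0.0544 to 0.101 in those 9 cases). Cacna1f lies on the X chromosome. Xist, the RNA of the inactive X, stood at 1.85 to 5.52 normalized counts in knock-out and at 1.20 to 5.82 in wild-type libraries. In both groups some libraries lay below the level of 3 reads and some above it. Xist and the Y-linked genes Ddx3y, Eif2s3y, Kdm5d and Uty together held 4002 to 5503 normalized counts in knock-out and 3832 to 5056 in wild-type libraries. Nearly all of that sum was thus Y-linked. Of the 4 of these sex genes that were tested, 1 was higher. Rod markers fell and cone markers rose beside Cacna1f, and their part in its fall was not tested.

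The other L-type genes are Cacna1d, the channel of cochlear hair cells and cardiac pacemaking, Cacna1c, that of heart and smooth muscle and of many neurons, and Cacna1s, that of skeletal muscle. Cacna1d ranged from 952.9 to 1444 normalized counts in knock-out libraries, with a median of 1111. In wild-type libraries it had 972.7, 1203, 1259, 1305 and 1291. The ranges lie over each other (log2 fold change -0.08, 95% interval -0.31 to 0.15, adjusted p = 0.558), and the sign turned with library totals (0.054). 1 exon or more of Cacna1d overlaps Chdh on the other strand, which had a mean of 95.5 normalized counts in knock-out and 72.1 in wild-type libraries. Cacna1c had 183.2 to 261.2 normalized counts in knock-out libraries and 246.7 to 300.7 in wild-type libraries, overlapping at their ends. Its log2 fold change was -0.28 (SE 0.09, adjusted p = 0.0184). Leaving out wild-type replicate 4 ended this call (-0.25, adjusted p = 0.0526), and 3 alpha1 genes were then called lower in place of 5. It also ended when the shallowest library of each genotype was dropped (knock-out replicate 2 and wild-type replicate 1; -0.23, adjusted p = 0.0746) and with library totals (-0.15, adjusted p = 0.205). The 7 vessel and smooth muscle markers summed to 1018 to 1490 normalized counts in knock-out and 942.3 to 1403 in wild-type libraries, with 1 higher and 1 lower.

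Cacna1s, although named for skeletal muscle, was read in every retina. It ranged from 500.3 to 539.8 normalized counts in knock-out libraries and was 501.9, 582.7, 592.1, 568.4 and 557.8 in wild-type libraries. Wild-type replicate 1 lay among the knock-out libraries and the other four above them. The log2 fold change was -0.11 (95% interval -0.22 to 0.01, adjusted p = 0.123); without wild-type replicate 1 it was -0.15 (adjusted p = 0.0341), and with library totals it turned to 0.028. The 7 skeletal muscle markers together held 163.0 to 218.9 normalized counts in knock-out and 178.5 to 255.3 in wild-type libraries. Of these, 4 passed the filter on low values, and none was called (log2 fold change -0.50 to -0.16). Among the others, the muscle myosin genes Myh1 and Myh4 had 3 and 2 reads over all knock-out libraries and 1 read each over the wild-type libraries. The part of muscle tissue in the Cacna1s reads was not tested.

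The promoters of Cacna1f and Cacna1s are shown as examples of L-type genes, Cacna1f as the one with the most reads and Cacna1s as the one member window that held both motifs searched. Each line gives the 250 bases before the start site from RefSeq (GRCm38.p6), 5′ to 3′ on the strand of the gene, Cacna1f at chrX:7606853-7607102 (plus strand) and Cacna1s at chr1:136052561-136052810 (plus strand). Capitals mark TAATCC, the core of sites bound by CRX-type homeodomain factors of photoreceptors, and TGCTGA, a half-site of the Maf family to which Nrl belongs, on either strand.
Cacna1f: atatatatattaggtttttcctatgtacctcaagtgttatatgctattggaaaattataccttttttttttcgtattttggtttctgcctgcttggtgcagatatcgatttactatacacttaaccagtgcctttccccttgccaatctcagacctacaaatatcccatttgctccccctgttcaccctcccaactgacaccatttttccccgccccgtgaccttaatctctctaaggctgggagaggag
Cacna1s: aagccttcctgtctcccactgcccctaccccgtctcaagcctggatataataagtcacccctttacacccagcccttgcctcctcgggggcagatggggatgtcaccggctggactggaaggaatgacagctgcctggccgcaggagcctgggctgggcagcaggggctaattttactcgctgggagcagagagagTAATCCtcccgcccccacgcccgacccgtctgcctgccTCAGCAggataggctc
Cacna1s held 1 TAATCC and 1 TGCTGA (read as TCAGCA on this strand), which do not overlap, and Cacna1f held neither. Of the other members in the table, Cacna1c, which was called lower, held TGCTGA at 2 of its 3 start sites and no TAATCC, and Cacna1b, Cacna1d, Cacna1e and Cacna1i held neither, so called and not called genes are found with and without a match. Of the 32851 start sites in the RefSeq table, 6.25% held TAATCC and 16.1% held TGCTGA in such a window. A match is a run of letters, and no binding was measured.

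Among the genes of presynaptic channels, Cacna1a encodes the P/Q-type subunit of fast central synapses, Cacna1b the N-type and Cacna1e the R-type subunit. Cacna1a ranged from 994.3 through a median of 1081 to 1140 normalized counts in knock-out libraries. It had 1248, 1343, 1187, 1302 and 1381 in wild-type libraries, all above the knock-out ones. The log2 fold change was -0.26 (SE 0.05, adjusted p = 0.000345), and it was called under all 22 alternatives. Part of an exon of Cacna1a overlaps the antisense gene Gm16183, which was not analysed here.

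Cacna1b had 638.9, 673.7 and 789.0 normalized counts as lowest, median and highest knock-out values. The wild-type libraries held 761.9, 888.3, 838.7, 918.6 and 829.2. Knock-out replicate 5 was above wild-type replicate 1, and no other library crossed over. The log2 fold change was -0.30 (SE 0.06, adjusted p = 0.000667), and the call ended with library totals alone (-0.16, adjusted p = 0.0504). Cacna1e ranged from 225.0 to 309.9 normalized counts in knock-out and from 254.0 to 366.6 in wild-type libraries, with much overlap. It was not called (-0.22, 95% interval -0.44 to 0.01, adjusted p = 0.105), but was without wild-type replicate 1 (-0.29, adjusted p = 0.0217). Amacrine and ganglion cell markers fell beside these genes, while bipolar markers were higher in 5 of 8 and lower in 1. Horizontal cell markers were higher in 1 of 4 and lower in 1. That is near the 23.6% higher and 22.7% lower of all tested genes. The part of these markers was not tested. The 6 amacrine markers summed to 12437 to 13323 normalized counts in knock-out and 15052 to 17458 in wild-type libraries, and the 6 ganglion markers to 15779 to 20930 and 21232 to 26553.

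Because Cacna1h rose and Cacna1f fell, the make-up of the alpha1 reads differed. Cacna1h took 34.2% ± 1.8 of the reads of the 10 genes in knock-out and 14.6% ± 1.6 in wild-type libraries. Cacna1f took 27.4% ± 2.2 in knock-out and 39.0% ± 2.4 in wild-type libraries. The T-type genes together took 51.6% ± 1.1 in knock-out and 34.8% ± 1.8 in wild-type libraries, and the L-type genes 37.5% ± 1.6 and 50.9% ± 2.0. The share of the P/Q-, N- and R-type genes was 10.9% ± 1.2 in knock-out and 14.3% ± 1.0 in wild-type libraries. For each of these 3 shares of channel types the libraries of the groups do not overlap. In a share the rise of 1 gene lowers the others, and the summed normalized count of the 10 genes was 18828 ± 2527 in knock-out and 17228 ± 1775 in wild-type retina.

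**Figure D3:**
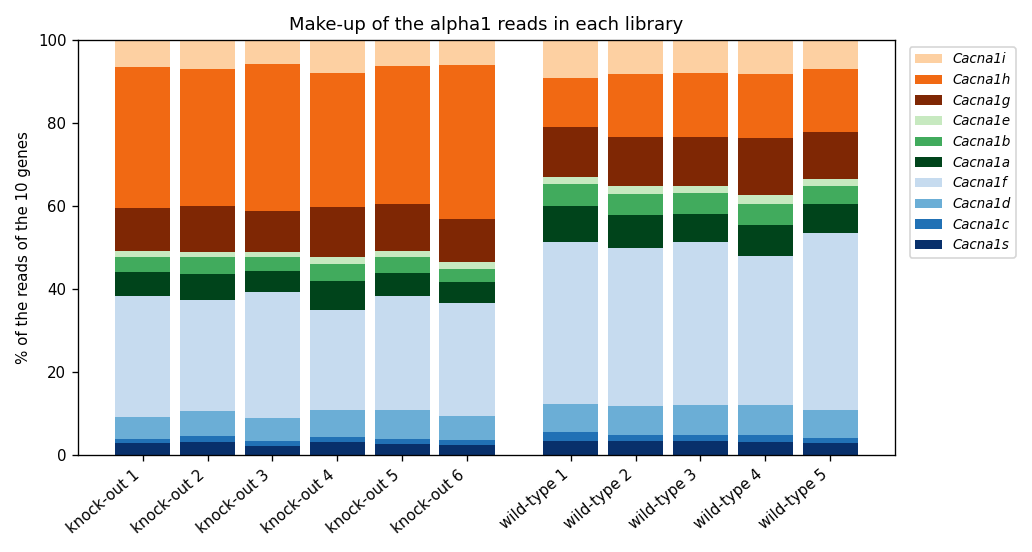
Share of the reads of the 10 alpha1 genes taken by each (y axis, percent) in each library (x axis, knock-out left of wild-type); blue, L-type; green, P/Q-, N- and R-type; brown to orange, T-type. The orange Cacna1h block is 32.3% to 37.1% in the 6 knock-out libraries and 11.8% to 15.5% in the 5 wild-type libraries.

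Levels of different genes were compared per kilobase of merged exons (GENCODE M21). In knock-out retina Cacna1f (854 ± 166 normalized counts per kilobase) and Cacna1h (784 ± 137) led and their libraries overlapped, whereas in wild-type retina Cacna1f (1107 ± 157) stood above Cacna1h (307.0 ± 57.7) without overlap. Cacna1g followed in both, at 239.5 ± 25.7 per kilobase in knock-out and 247.1 ± 30.4 in wild-type retina, where it overlapped Cacna1h. In knock-out retina Cacna1a (135.8 ± 7.5), Cacna1d (127.4, with libraries between 106.1 and 160.7) and Cacna1i (123.9 ± 5.9) came next and each overlapped its neighbour. In wild-type retina Cacna1a (163.0 ± 9.7) stood clear of Cacna1i (140.4 ± 5.4), which overlapped Cacna1d (134.3 ± 15.2). Cacna1s (81.1 ± 2.8 in knock-out and 87.4 ± 5.5 in wild-type retina) and Cacna1b (70.6 ± 5.6 and 86.6 ± 6.1) overlapped in both, and Cacna1e (17.8 ± 2.6 and 20.7 ± 2.9) and Cacna1c (14.8 ± 1.9 and 17.9 ± 1.6) were lowest and overlapped too. Per coding length, chosen as an alternative after the values were seen, Cacna1h (913 ± 160) came before Cacna1f (873 ± 169) in knock-out retina, again with overlap. The order in the middle depends on which length is used: per coding length Cacna1i (183.7 ± 8.8 in knock-out and 208.2 ± 8.1 in wild-type retina) stood above Cacna1a (151.5 ± 8.4 and 181.9 ± 10.8) without overlap in either genotype. Cacna1b (98.8 ± 7.9 and 121.3 ± 8.6) likewise came before Cacna1s (93.5 ± 3.2 and 100.9 ± 6.4), without overlap in wild-type retina.

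The ratio of the L-type genes Cacna1d and Cacna1f was taken within each library, where the scaling drops out. The log2 ratio of Cacna1d to Cacna1f was -2.17 ± 0.24 in knock-out libraries (-2.43 to -1.86) and -2.48 ± 0.15 in wild-type libraries (-2.68 to -2.29; SD, n = 6 and 5). The ranges overlap, and the difference of 0.30 had an exact two-sided permutation p of 0.0368. That is a narrow margin, since p rose to between 0.0524 and 0.0762 when any of 8 libraries was left out: knock-out replicates 2, 4, 5 and 6 and wild-type replicates 1, 2, 3 and 5.

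Within a genotype the alpha1 genes did not vary alike. Cacna1f varied most in knock-out retina (19.4% as SD over mean) and Cacna1h in wild-type retina (18.8%), while Cacna1i (4.78% in knock-out and 3.87% in wild-type) and Cacna1s (3.45% and 6.30%) varied little. Libraries shifted several genes at once: 10 of 10 alpha1 genes lay below the knock-out median in knock-out replicate 1. In knock-out replicates 2 and 4 it was 9 and 7 of 10, and in replicates 3, 5 and 6 it was 2, 0 and 2. Knock-out replicate 5 held the highest value of its group for 8 of 10, and wild-type replicate 1 the lowest for 8 of 10. The same counts were not taken over all genes, so such shifts may not be particular to the alpha1 genes. Libraries differed over the whole table too. The chi-square of read counts per degree of freedom was 2.84 to 4.74 among knock-out replicates 1, 2 and 4. Among knock-out replicates 3, 5 and 6 it was 3.27 to 5.36. Between these sets of replicates, picked after the values were seen, it was 5.99 to 12.1. The ratio of Cacna1h to Cacna1f lay between 1.17 and 1.36 in the knock-out libraries, a narrower spread than that of either gene, and between 0.301 and 0.428 in the wild-type libraries, where replicate 4 held less Cacna1f but more Cacna1h than replicates 2 and 3. Grm6, the glutamate receptor gene of ON bipolar cells, was likewise lowest in wild-type replicate 1 (1556 normalized counts, against 2545 to 3226 in the other four) and ranged from 2233 to 3560 in knock-out libraries. The bipolar marker Trpm1 was also lowest in wild-type replicate 1 (4995, against 7105 to 8064 in the others of its group). Cabp5, another bipolar marker, differed little there (1857, against 1964 to 2010). Among knock-out libraries Cabp5 was highest in replicate 1 (7392) and lowest in replicate 3 (6355), where Cacna1h was highest. The remaining bipolar markers are not given by library here. Whether these shifts share a source was not tested.

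**Figure D4:**
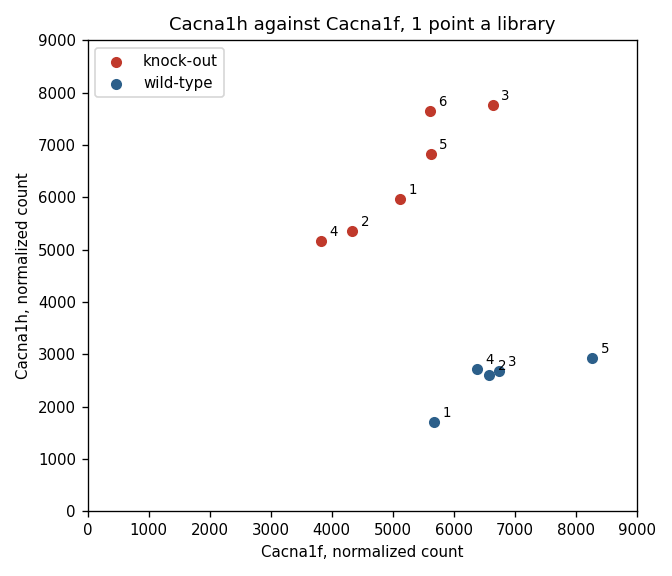
Cacna1h (y axis) against Cacna1f (x axis), both as normalized counts, 1 point a library with its replicate number; knock-out red, wild-type blue. The red points, between replicate 4 (3819 and 5164) and replicate 3 (6642 and 7772), lie above the blue points, of which replicate 1 is lowest on both axes.

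The genes whose profile over the 11 libraries lay closest to that of Cacna1h, by the root mean square difference of mean-centred log2 values among 14583 others, were Celf3 (0.072), an RNA-binding protein gene, Kcnh6 (0.085), a potassium channel gene of the ERG family, Bmp1 (0.115), Tcirg1 (0.120) and Trim68 (0.130). Celf3 stood at 5787 ± 1174 normalized counts in knock-out and 2226 ± 378 in wild-type retina (log2 fold change 1.37), and Kcnh6 at 1528 ± 173 and 623 ± 123 (1.31). For Cacna1f they were Abcc10 (0.088), Qtrt1 (0.101), Hexdc (0.103), Adcy6 (0.104), an adenylyl cyclase gene, and Cc2d1b (0.104). These 10 genes were picked for their likeness, so their differences between genotypes carry no further weight.

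The alpha1 subunits of L-, P/Q-, N- and R-type channels work with auxiliary subunits. Counted here were 16 genes of the beta, alpha2delta and gamma families. Of the 14 tested, 10 fell and 0 rose, with a median of -0.26 on the log2 scale, against 22.7% of all tested genes lower. Cacng1 and Cacng6, with 8 and 0 reads over the knock-out libraries and 4 and 3 over the wild-type libraries, did not pass the filter. Cacnb2, the main beta subunit gene of photoreceptor synapses, fell most. It had 2307 to 2437 normalized counts in knock-out libraries with a median of 2393, and 4350, 4611, 4219, 4284 and 4266 in wild-type libraries. The groups lie far apart, with a log2 fold change of -0.86 (SE 0.04, adjusted p = 3.36e-13). Cacna2d4, the alpha2delta subunit gene of photoreceptors, had 7464 to 9309 normalized counts in knock-out and 10372 to 11267 in wild-type libraries, with no overlap (-0.38, SE 0.05, adjusted p = 5.22e-06). Rod markers moved in the same direction as both, and their part was not tested.

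Smaller falls were seen in Cacnb1 (-0.28), Cacnb4 (-0.20), Cacna2d2 (-0.27) and Cacna2d1 (-0.11). The gamma genes Cacng2 (-0.25), Cacng3 (-0.36), Cacng5 (-0.33) and Cacng7 (-0.32) also fell; these are best known as auxiliary subunits of AMPA-type glutamate receptors. The 4 other tested genes were not called, with values between -0.19 and -0.02. With library totals 6 of the 14 were called lower and none higher, against 11.7% of all tested genes lower.

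Of 26 genes of channel regulators and active zone partners, 23 were tested, 13 fell and 3 rose (median -0.16, against 23.6% of all tested genes higher and 22.7% lower). The falls included Cabp4 (1227 ± 127 normalized counts in knock-out and 2833 ± 130 in wild-type retina, log2 fold change -1.21, adjusted p = 5.95e-12), which encodes a calcium-binding protein that tunes the photoreceptor L-type channel and is, like Cacna1f, a night blindness gene. Its paralogue Cabp5, also 1 of the 8 bipolar markers counted above, rose (6765 ± 349 and 1957 ± 59, 1.79, adjusted p = 3.79e-17). Cabp2 (-0.57) and Cabp1 (-0.19) fell. The RGK GTPases Gem and Rem2, which bind beta subunits and hold channels back, moved apart: Gem stood at 1484 ± 97 in knock-out and 487 ± 68 in wild-type retina (1.61, adjusted p = 7.22e-12), and Rem2 at 24.3 ± 5.4 and 44.1 ± 7.3 (-0.84, adjusted p = 0.000703). Their relatives Rem1 and Rrad had too few reads to be tested, as had Otof.

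The active zone scaffold genes Rims2 (-0.39), Rims1 (-0.32), Bsn (-0.30), Rimbp2 (-0.20) and Erc2 (-0.15) fell by less than 2-fold. Calm3 (-0.22), Fstl5 (-0.16), Stac2 (-0.15) and the low-level Stac (-0.58) fell too, while Lrit3 (0.96), a photoreceptor synapse protein gene, rose. The 7 not called lay between -0.22 and 0.13. With library totals 5 of these genes were called higher and 5 lower, against 40.2% of all tested genes higher and 11.7% lower.

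Of 21 genes that store, pump or exchange calcium, all tested, 5 rose and 8 fell (median -0.15), against 23.6% of all tested genes higher and 22.7% lower. Slc8a3, a sodium-calcium exchanger gene, had 4540 to 4924 normalized counts in knock-out and 2059 to 2159 in wild-type libraries (1.17, SE 0.04, adjusted p = 2.03e-15). Orai1, the pore of store-operated calcium entry, rose as well (240.5 ± 20.3 in knock-out and 86.3 ± 9.8 in wild-type retina, 1.47), whereas Orai2 fell (-0.73). Itpr3 (0.73), the endoplasmic pump gene Atp2a2 (0.22) and the plasma membrane pump gene Atp2b1 (0.18) rose. Itpr2 (-0.44), the pump genes Atp2b3 (-0.38), Atp2b4 (-0.25) and Atp2b2 (-0.24), the store sensor gene Stim1 (-0.30) and the exchanger genes Slc8a2 (-0.21) and Slc8a1 (-0.17) fell. The 8 not called, which include the ryanodine receptor genes, lay between -0.28 and 0.15.

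**Figure D5:**
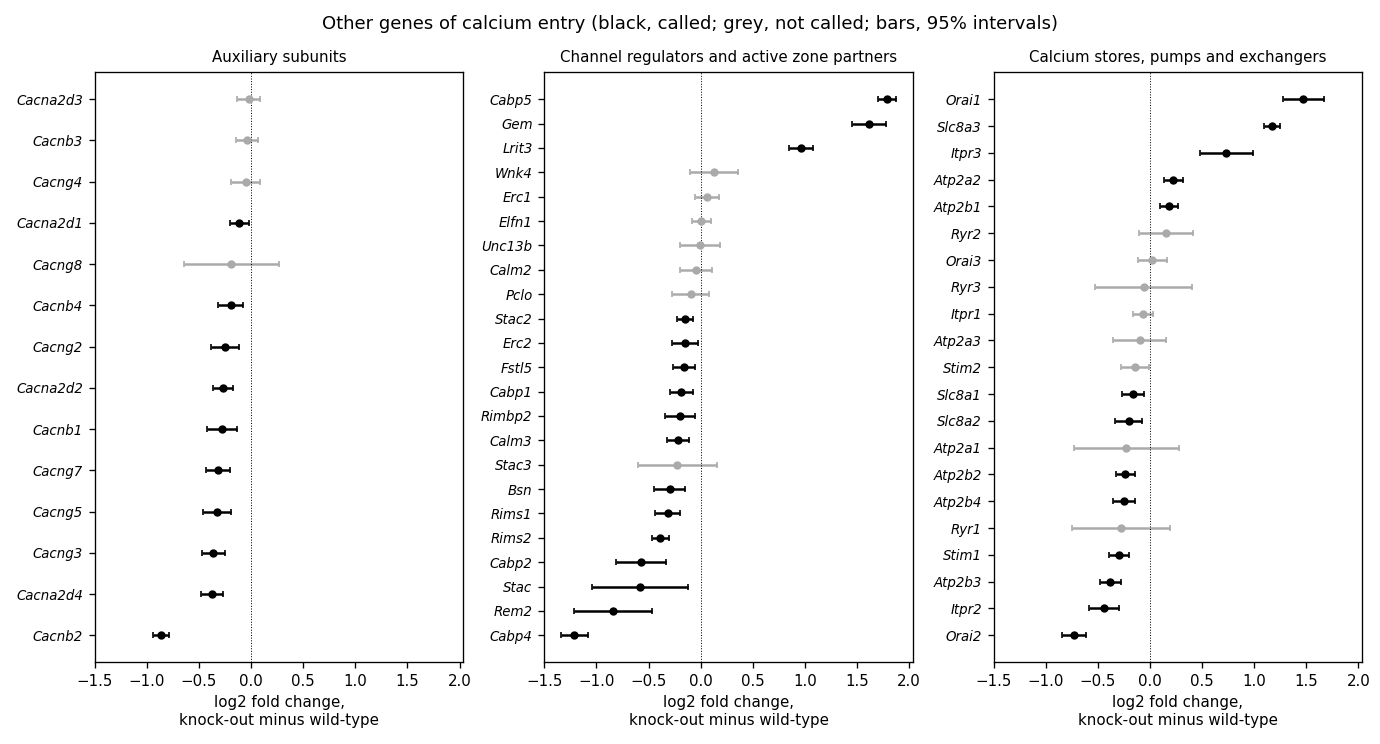
log2 fold change, knock-out minus wild-type (x axis), of the tested auxiliary subunit genes (left), channel regulators and active zone partners (middle) and calcium stores, pumps and exchangers (right), with 95% intervals; black, called; grey, not called. The auxiliary subunits lie at or below 0 with Cacnb2 (-0.86) lowest, while the other lists spread to both sides, from Cabp4 (-1.21) to Cabp5 (1.79).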

How the data were processed

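The authors deposited 1 table whose library columns hold a signal, read counts per gene divided by 1 size factor per library, with their own log2 fold change and adjusted p-value beside it, per the file headers. Alignment and counting tools in the submitters' processing notes are HTSeq 0.6.0 and TopHat2 2.1.1, beside DESeq and mouse build mm9. How strand was handled in counting is not given in the sources used here, so genes that overlap on opposite strands may share reads. Per the labels' protocols, stranded single-end reads were sequenced, and both polyA RNA and removal of ribosomal RNA are named. Whole reads could be recovered for 100% of the deposited values, with a tolerance of 1e-06 reads.

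Genes with at least 10 normalized counts in at least 5 libraries (14584) were tested with limma 3.58.1 in R 4.3.3 (mean-variance trend, robust) on log2(normalized count + 1), two-sided, genotype as the only term, all 11 libraries; this scale understates changes of low genes. The design allowed for counts or normalized values, and the latter were found. edgeR 4.0.16, DESeq2 1.42.0 and limma-voom on recovered reads, other scalings, filters and pseudocounts, a replicate block and leaving out libraries were alternatives. The step was tested on simulated data with few changed genes, balanced in direction, and the same dispersion for every gene. These data differ in that, so the simulation does not show how the step fares here. The labels do not say that replicates are separate animals; the p-values cover the spread among these libraries, which may be technical. Intervals are at 95%. The members and gene lists were chosen with earlier results of these data known; 1 gene of the regulator list and 1 of the rod marker list are not reported here and were left out of all counts and sums. Named genes are all members, called genes of 3 pathway lists and the 5 genes nearest in profile to each of the 2 called members that changed most. Nrl, single markers, Xist, overlapping genes and genes too low to test are named where a result stands beside them. Gene lengths are from GENCODE M21, another build, and promoters from RefSeq's table, matched by symbol for 7 of 10 members.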

Additional observations from a re-analysis of the deposited data

Results flagged for a closer look

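Cacna1h in wild-type replicate 1 stood apart from its group. It held 1707 normalized counts there, and the nearest of the other wild-type libraries 2598, so that this gap took 0.729 of the whole range of the group. Without this library the log2 fold change of Cacna1h was 1.22 (adjusted p = 1.29e-05, limma) in place of 1.36. It was the 1 value that stood apart in 22 groups of values examined, where chance gives about 1 in 20. The groups were the 10 alpha1 genes and the Cacna1d to Cacna1f ratio in each genotype. They share libraries and are not independent. Wild-type replicate 1 was lowest of its group for 8 of 10 alpha1 genes. Its chi-square of read counts per degree of freedom was 10.5, 11.7 and 14.6 against wild-type replicates 3, 4 and 5, and lower against replicate 2. Replicates 3, 4 and 5 differed from each other by 2.92 to 3.62. Knock-out replicates 2 and 5 differed by 12.1. Whether the low Cacna1h value is part of a shift of the whole library was not tested.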

How the results depend on the processing

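Of 220 values of single alpha1 genes under 22 alternatives, 192 kept their direction and their side of the threshold, 19 lost the call, 5 gained it and 4 changed sign. The sign changes were Cacna1d (0.054), Cacna1g (0.093) and Cacna1s (0.028) with library totals and Cacna1g (0.017) without wild-type replicate 4, where leaving out 1 library gave Cacna1g -0.11 to 0.017. With library totals 1 alpha1 gene was called lower in place of 5, 6 auxiliary genes in place of 10 and 5 regulator genes in place of 13 (with 5 higher in place of 3), and over all genes 5861 were called higher and 1711 lower; this scaling moves the median of all genes. Leaving out 1 library gave 3 to 7 alpha1 genes lower. The difference in the Cacna1d to Cacna1f ratio was 0.24 to 0.36 when 1 library was left out, 0.27 (exact permutation p = 0.127) with knock-out replicate 2 and wild-type replicate 1 both left out, an alternative chosen after seeing the data, as was limma-voom, and 0.32 over the 5 same-numbered pairs. That replicate block had an exact sign-flip p of 0.125, and the smallest that 5 pairs can give is 0.0625. The labels give knock-out and wild-type libraries the same numbers without saying what they share, and the deviations of same-numbered libraries correlated from -0.13 to 0.22; the replicate block gave 6791 calls over all genes against 6752, and added Cacna1e (-0.25, adjusted p = 0.0274). Depth limits Cacng1, Cacng6, Rem1, Rrad and Otof, which were not tested.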

Other observations

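By the authors' deposited table, an adjusted p under 0.05 was reached by 6 alpha1 genes, and all 6 were also called here. Over all genes it was reached by 6917, of which 3574 were higher and 3343 lower. Both fits used the same libraries and size factors, so the overlap is no independent check. The authors' deposited table gives Cacna1h a log2 fold change of 1.31 and Cacna1f one of -0.36 with an adjusted p of 0.0355. Exons of Cacna1s overlap Gm37759 on the other strand, which was not analysed here.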
